A study of Mus musculus with 22 samples.

Results

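The unfolded protein response of the endoplasmic reticulum (ER) and ER-associated degradation were followed through 37 listed genes in the left ventricle of mice. The genes were taken by symbol from both deposited expression tables, which hold 30735 genes each, and all 37 were found in both. They were set out as 16 chaperones and folding enzymes, 5 stress sensors and their factors, 7 genes of the ATF4 arm and 9 genes of degradation. The rule that lists them uses no measured value, but the list was drawn up with earlier results of these data known. All mice were FVB, aged 3 to 5 months per the labels. They were wild type (WT) or carried a transgene for valosin-containing protein (VCP TG), and they underwent either transverse aortic constriction (TAC), which narrows the aorta so that the left ventricle pumps against pressure, or a sham operation. The groups were WT sham (4 libraries), VCP TG sham (4), WT 2 weeks after TAC (4), VCP TG 2 weeks after TAC (3), WT 5 weeks after TAC (4) and VCP TG 5 weeks after TAC (3), with the sham hearts taken at 2 weeks. The promoter and the species of the transgene are not given in the sources used here, and no label says whether a library pools animals.

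When unfolded proteins build up in the ER, the chaperone Hspa5 (BiP) leaves the sensors Ern1 (IRE1), Eif2ak3 (PERK) and Atf6, and each sends a signal to the nucleus. Ern1 splices Xbp1 mRNA into the form that encodes an active factor, cleaved Atf6 enters the nucleus, and Eif2ak3 slows translation while Atf4 is made, so that chaperones, amino acid genes and degradation genes are transcribed. In ER-associated degradation, misfolded proteins pass through a membrane complex built on Syvn1 (HRD1) and Sel1l, and VCP is the ATPase that pulls them into the cytosol for the proteasome. TPM of a gene cannot tell spliced from unspliced Xbp1, and says nothing of the phosphorylation or cleavage of the sensors.

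Stretches of DNA before the start sites are shown for 7 members described below, so that the elements through which the pathway's factors are known to act can be seen. Promoter windows from RefSeq (GRCm38.p6, 250 bases before to 50 after each start, from the reference mouse genome and not from FVB) were at hand for 32 of the 37 genes. The ER stress element, ERSE, was searched on both strands as CCAAT, 9 bases of any kind and CCACG, and was found in 8 of the 32: Hspa5, Hsp90b1, Calr, Canx, Creld2, Dnajc3, Pdia6 and Syvn1. That is 7 of the 14 chaperones with a window, and Syvn1 in degradation. It stood in 0.137% of all 27025 genes with a window. Its shorter relative ERSE-II, searched as ATTGG, 1 base of any kind and CCACG, was found in Herpud1 and Dnajb11, against 0.0444% of all genes. The C/EBP-ATF response element, CARE, searched as TGATGNAA, was found in 4 of the 32 (Asns, Chac1, Trib3 and Herpud1), against 4.51% of all genes. The unfolded protein response element TGACGTGG was in none of the 32 windows and in 0.714% of genes. ERSE and ERSE-II both end in CCACG, which alone was in 25 of the 32 windows and in 35.5% of genes. In the lines below capitals mark the element, read 5′ to 3′ on the strand of the gene, and an element that lies on the other strand appears as its reverse complement.
Hspa5 ERSE: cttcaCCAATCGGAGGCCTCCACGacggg
Hsp90b1 ERSE: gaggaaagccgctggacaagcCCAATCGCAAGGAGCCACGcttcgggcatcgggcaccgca
Pdia6 ERSE: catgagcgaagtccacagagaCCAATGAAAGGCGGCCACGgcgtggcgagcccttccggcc
Creld2 ERSE: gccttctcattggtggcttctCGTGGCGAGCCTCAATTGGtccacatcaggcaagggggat
Syvn1 ERSE: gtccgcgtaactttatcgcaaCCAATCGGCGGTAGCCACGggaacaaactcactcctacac
Herpud1 ERSE-II: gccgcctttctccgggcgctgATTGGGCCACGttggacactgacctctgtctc
Asns CARE: ccacaTGATGAAActtcc
These lie at chr2:34772020-34772048 (plus strand) for Hspa5, chr10:86705617-86705677 (minus strand) for Hsp90b1, chr12:17266470-17266530 (plus strand) for Pdia6 and chr15:88819499-88819559 (plus strand) for Creld2. Syvn1 is at chr19:6046511-6046571 and Herpud1 at chr8:94386356-94386408, both on the plus strand, and Asns at chr6:7693220-7693237 on the minus strand. All 7 are upstream of the RefSeq start. Hsp90b1 holds another ERSE, not shown, on the other strand and nearer the start (107 to 89 bases before it, against 212 to 194). In the GENCODE M21 annotation, the Hspa5 and Asns stretches fall inside the first exon of a longer transcript model, and the others lie outside the exons of their gene. A match is a description of these letters and shows no binding.

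Several libraries stood apart before any comparison. Vcp had 45.7 to 82.6 TPM in WT sham and 73.5 to 186 TPM in VCP TG sham. After 2 weeks of TAC, Vcp was at 119 TPM in WT replicate 1 and at 47.7 to 50.3 TPM in the other 3 WT libraries, against 125 to 151 TPM in VCP TG. At 5 weeks it stood at 62.2, 123, 107 and 47.7 TPM in WT and at 118, 108 and 39.1 TPM in VCP TG. Vcp did not separate the labelled genotypes there, and the library labelled VCP TG replicate 3 was the lowest of the 7. In the 2-week table, WT TAC replicate 1 and VCP TG sham replicate 1 are treated below as having Vcp against their label. For VCP TG sham replicate 1 this name is loose, since its 89.1 TPM lay just above the WT sham range. VCP TG sham replicate 4, at 73.5 TPM inside that range, is not treated so. In the 5-week table, WT replicates 2 and 3 and VCP TG replicate 3 are treated so. The 6 myocyte markers (Myh6, Myl2, Tnnt2, Tnni3, Actc1 and Ryr2), all above 0 in all 22 libraries, summed to 15780 to 32894 TPM. Myocyte transcripts were thus present throughout, but this sum does not part ventricle from atrium. Atrial markers, 6 genes, summed to 9595 TPM in WT replicate 1 at 2 weeks of TAC, to 10591 and 1724 TPM in VCP TG sham replicates 3 and 4, and to 4068 TPM in VCP TG replicate 2 at 2 weeks of TAC. In the remaining 18 libraries they summed to at most 560 TPM. Mitochondrial transcripts made up 72.9% of the TPM in VCP TG sham replicate 4, 27.9% in replicate 3 and 40.2% to 60.9% elsewhere. After TAC their share was lower in every VCP TG library than in every WT library of the same time. It was 40.2% to 51.6% against 55.5% to 60.9% at 2 weeks, and 47.6% to 50.8% against 53.0% to 55.6% at 5 weeks. The part of this in the differences between genotypes was not tested. The mitochondrial share touches every level given here, since TPM is a share of a fixed total. In such bulk tissue, fewer cells of a type and less RNA per cell cannot be told apart.

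In the order of their median TPM over the 22 libraries, a scale that is per transcript length, the most abundant members were Canx (93.6), Herpud1 (91.9), Hspa5 (71.9), Hsp90b1 (70.4) and Calr (60.1). The sensors lay lower, from Xbp1 at 17.0 and Atf6 at 16.7 to Eif2ak3 at 2.82, and the ATF4 arm spanned Atf4 at 27.4 and Ddit3 at 20.2 down to Trib3 at 0.794. Degradation genes other than Herpud1 were between 1.87 (Edem1) and 17.8 (Sel1l). Neighbours in this order are not distinct, since each gene's range over libraries was wider than the step to the next: Canx ran from 71.3 to 169 TPM and Herpud1 from 22.8 to 175 TPM. The widest relative range was that of Chac1, 10.2-fold between its lowest and highest library, and the narrowest was that of Atf6, 2.30-fold.

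**Figure D1:**
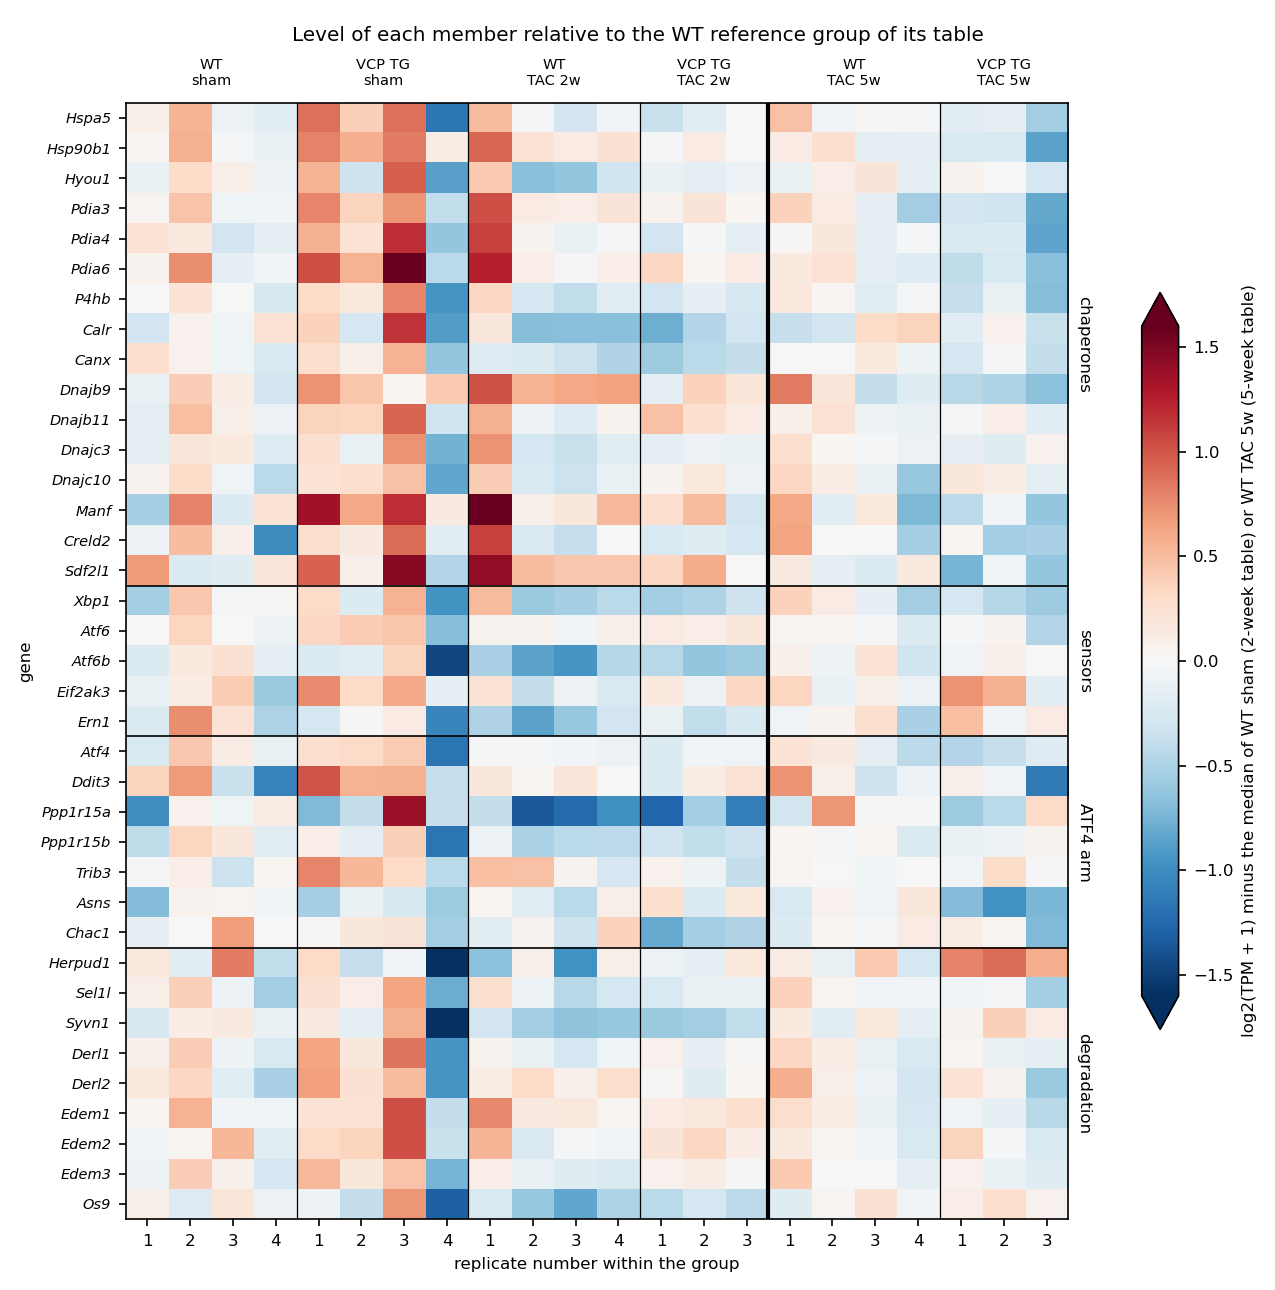
Each cell is log2(TPM + 1) of a gene (rows, by arm) in a library (columns, by group and replicate number) minus the median of WT sham for the 2-week table or of WT 5 weeks after TAC for the 5-week table; colours stop at 1.6 in either direction. Whole columns stand out, among them VCP TG sham replicate 4 (the lowest of its group in 35 of 37 genes, as in 75.8% of all genes) and WT replicate 1 at 2 weeks of TAC (the highest of its group in all 16 chaperones, and in 39.8% of all genes).

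No member passed an adjusted p of 0.05 in any of the 6 comparisons by limma on log2(TPM + 1) with all groups of a table in 1 fit. These were VCP TG against WT in sham, TAC against sham in each genotype, VCP TG against WT at 2 weeks of TAC, the difference between the genotypes' TAC responses, and VCP TG against WT at 5 weeks of TAC. Of the members, 0, 3, 2, 2, 3 and 4 had an unadjusted p under 0.05, in that order, beside 3.96%, 11.4%, 8.77%, 9.58%, 5.01% and 4.49% of all genes. What follows therefore gives levels, the places where groups did not overlap, and the counts by arm, with the share of all genes that did the same.

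In sham hearts all 16 chaperones had a fold change above 0 in VCP TG against WT, but none passed the test and none separated the groups. Without VCP TG sham replicate 3, only 9 of the 16 were above 0, and members above 0 went from 27 to 14 of 37. Hspa5, the ER's main chaperone, stood at 83.1, 114, 72.8 and 69.0 TPM in WT sham and at 144, 102, 144 and 34.4 TPM in VCP TG sham. Replicates 1 and 3 of VCP TG were above every WT library and replicate 4 was below them all. The log2 fold change of Hspa5 was 0.15 ± 0.35 (SE), and it was -0.06 without VCP TG sham replicate 3 and 0.62 without replicate 4. Manf, a secreted ER stress factor, had the largest fold change of the chaperones, 0.75 ± 0.37, with 10.01 to 26.7 TPM in WT and 16.6 to 39.4 TPM in VCP TG. Members called numbered 0 of 37 (0% of 15540 genes tested), and members whose groups did not overlap numbered 0 higher and 0 lower (0.605% and 0.431% of all genes).

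The median log2 fold change in sham was 0.25 for the chaperones, -0.05 for the sensors, -0.10 for the ATF4 arm and 0.09 for degradation, beside -0.01 over all genes. Leaving out 1 library turned the sign of each of these medians except that of the chaperones. Without VCP TG sham replicate 3 they were 0.06, -0.26, -0.25 and -0.10 in the same order, beside -0.17 over all genes. Without replicate 4 they were 0.49, 0.24, 0.28 and 0.37, beside 0.20 over all genes. After rescaling each library so that nuclear protein-coding genes share the total, 14 of the 16 chaperones were above 0 and 16 of 16 were above the median of all genes. Without the libraries rich in atrial transcripts, all 16 remained above 0, with a median of 0.37 beside 0.07 over all genes. Without VCP TG replicate 1, 12 of 16 were above 0, with a median of 0.18. Vcp in that library, at 89.1 TPM, lay just above the WT sham range, and after rescaling it was the lowest of VCP TG sham at 215. Replicate 4, at 73.5 TPM, lay inside the WT range as deposited but stood at 312 after rescaling. Herpud1, a stress-induced membrane protein of the degradation complex, was at 112, 88.0, 175 and 75.6 TPM in WT and 123, 77.0, 96.3 and 22.8 TPM in VCP TG. Its groups overlapped widely, with a log2 fold change of -0.65 ± 0.41, which was -0.14 without VCP TG sham replicate 4.

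In WT hearts, 2 weeks of TAC came with more Dnajb9 and less Atf6b in the 8 libraries concerned. Dnajb9 (ERdj4), an Hspa5 co-chaperone and a textbook target of Xbp1, was at 18.4, 26.6, 21.7 and 15.9 TPM in sham and at 41.4, 29.9, 31.2 and 31.8 TPM after TAC. All 4 TAC libraries were above all 4 sham libraries, and replicate 1 was the highest. Atf6b, the close relative of Atf6, was at 4.39, 6.02, 6.47 and 4.68 TPM in sham and at 3.40, 2.49, 2.30 and 3.61 TPM after TAC, again with no overlap. The sum of 6 endothelial markers was lower after TAC, as Atf6b was and Dnajb9 was not. It was 250 to 346 TPM in WT sham and 174 to 202 TPM after TAC, with all 6 above 0 in every library. Myocyte marker sums (21531 to 29799 TPM in sham, 19584 to 23366 TPM after TAC) overlapped. Macrophage marker sums (55.3 to 104 and 76.6 to 213 TPM) overlapped too. The part of the endothelial markers in the lower Atf6b, Syvn1 and Os9 was not tested. With all 15 libraries of the table in the fit, the log2 fold changes were 0.69 ± 0.24 for Dnajb9 (limma adjusted p = 0.348) and -0.70 ± 0.30 for Atf6b (adjusted p = 0.399), and 0 of 37 members passed (0% of all genes; 1773 genes had an unadjusted p under 0.05).

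With the 8 WT libraries fitted alone, Dnajb9 passed at an adjusted p of 0.0488 and Atf6b at 0.0461 by limma, so 1 of 36 members rose and 1 fell, where 7.03% of the 13709 genes tested passed: 0.722% rose and 6.31% fell. The number of members passing ranged from 0 to 2 when 1 of the 8 libraries was left out, and the members changed. Without WT sham replicate 1 only Ppp1r15a passed (lower), where 683 of 13472 genes did. Without WT sham replicate 2 only Dnajb9 passed (higher), where 782 of 13437 genes did. Without WT sham replicate 4 Atf6b and Ern1 passed (lower), where 2148 of 13550 genes did. None passed when WT sham replicate 3 or any 1 of the 4 TAC libraries was left out, or with the replicate number as a block. WT TAC replicate 1, whose atrial markers are given above, also had a plasma and B cell marker sum of 293 TPM against 6.86 to 14.4 TPM in the other 3. The part of these cells in the level of Dnajb9 was not tested.

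Os9, a lectin that hands misfolded glycoproteins to the degradation complex, and Syvn1, its ubiquitin ligase, were also lower in every WT TAC library than in every sham library. Syvn1 was at 5.62, 7.54, 7.68 and 6.28 TPM in sham and at 5.36, 4.35, 4.06 and 4.18 TPM after TAC. Os9 was at 9.24, 7.38, 10.02 and 8.05 TPM in sham and at 7.15, 5.30, 4.42 and 5.85 TPM after TAC. The gap was narrow in both, and neither passed: the log2 fold changes were -0.50 ± 0.33 and -0.54 ± 0.31, with adjusted p of 0.558 and 0.505 by limma. In all, 1 member was higher and 3 were lower without overlap, beside 2.48% and 13.7% of all genes. The calls changed with the libraries in the fit. Without the 4 libraries rich in atrial transcripts, 4 of 37 members passed as lower in WT after TAC (Atf6b, Ppp1r15a, Syvn1 and Os9) and 0 as higher, beside 7.4% lower and 0.821% higher among 14618 genes. With the VCP TG sham group out of the fit, 3 of 36 members passed as lower (Atf6b, Syvn1 and Os9) and Dnajb9 as higher, beside 9.69% lower and 1.12% higher among 14878 genes. In both fits the share of members called as lower was close to that of all genes.

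All 5 sensor genes had a fold change below 0 with TAC in WT, from -0.03 ± 0.25 for Atf6 to -0.70 ± 0.30 for Atf6b. Xbp1 showed how far 1 library carried a group, with 15.5, 31.2, 22.5 and 23.2 TPM in sham and 32.7, 14.8, 15.5 and 16.7 TPM after TAC. The arm medians were 0.11 for the chaperones, -0.24 for the sensors, -0.10 for the ATF4 arm and -0.14 for degradation, beside -0.13 over all genes. WT TAC replicate 1 was the highest of its group for all 16 chaperones and for 29 of the 37 members, against 39.8% of all genes. Without it the chaperone median was -0.12, below 0, and without WT sham replicate 4 it was -0.05.

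In VCP TG hearts, 2 weeks of TAC came with fold changes below 0 in 32 of the 37 members and in 15 of 16 chaperones, none of which passed the test. Without VCP TG sham replicate 3 this was 19 below and 18 above 0, with 11 of 16 chaperones below. The median log2 fold change was -0.36 for the chaperones, -0.17 for the sensors, -0.40 for the ATF4 arm and -0.12 for degradation, beside 0.02 over all genes. All 16 chaperones were below that all-gene median. Without VCP TG sham replicate 3 the medians were -0.21, 0.07, -0.36 and 0.07 in the same order, beside 0.16 over all genes. Without the libraries rich in atrial transcripts all 16 were below 0, with a median of -0.54, and without VCP TG sham replicate 1 and WT replicate 1 of TAC the median was -0.22, with 15 of 16 below 0. Creld2, a stress-induced secreted protein with disulfide isomerase activity, was the member whose groups did not overlap, at 5.37, 4.77, 8.68 and 3.62 TPM in sham and 3.42, 3.55 and 3.34 TPM after TAC. Its log2 fold change was -0.52 ± 0.36, and -0.32 without VCP TG sham replicate 3. That is 1 of 37 lower and 0 higher, beside 0.676% and 3.35% of all genes, and 0 members were called where 0.772% of all genes were (0.766% higher and 0.00644% lower).

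Hspa5 after TAC lay between the extremes of its sham group, at 60.4, 68.8 and 78.2 TPM after TAC. Its log2 fold change was -0.42 ± 0.38, and it was -0.89 without VCP TG sham replicate 4 and -0.21 without replicate 3. Chac1 and Ppp1r15a had the largest fold changes of the ATF4 arm, -0.57 ± 0.27 and -0.95 ± 0.41, with adjusted p of 0.562 and 0.453 by limma. Ppp1r15a was at 7.77, 9.93, 36.1 and 10.1 TPM in sham and at 4.91, 8.70 and 5.69 TPM after TAC. Replicate 3 of sham, rich in atrial transcripts, stood far above the rest, and without it the log2 fold change of Ppp1r15a was -0.49. Chac1 degrades glutathione, and Ppp1r15a (GADD34) brings the phosphatase that ends the translational block. When each library was rescaled to nuclear protein-coding genes, the median of all genes moved from 0.02 to -0.22 in this contrast. Canx, the membrane lectin chaperone, then passed at an adjusted p of 0.0444 by limma, with a log2 fold change of -0.86 ± 0.18. It was 1 of 37 members called as lower and 0 as higher, beside 0.169% and 0.586% of 16547 genes. On that scale Canx stood at 334, 334, 385 and 315 in sham and at 147, 220 and 204 after TAC, with no overlap.

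Between genotypes at 2 weeks of TAC, 4 members were lower in every VCP TG library than in every WT library and 1 was higher. Dnajb9 was at 18.0, 26.0 and 22.9 TPM in VCP TG, below the lowest WT library at 29.9 TPM, with a log2 fold change of -0.57 ± 0.26. Chac1 was at 0.235, 0.475 and 0.543 TPM in VCP TG and at 0.891, 1.24, 0.715 and 1.77 TPM in WT, a low level in both groups, with a log2 fold change of -0.59 ± 0.27. Neither passed, with adjusted p of 0.464 and 0.489 by limma. Hsp90b1 (GRP94), the ER form of Hsp90, was at 63.8, 70.5 and 64.4 TPM in VCP TG and at 123, 75.5, 70.6 and 76.4 TPM in WT. The gap was almost nil, 70.5 against 70.6 TPM. Derl2, a derlin of the machinery that moves proteins out of the ER, was at 6.42, 5.36 and 6.49 TPM in VCP TG and at 6.96, 8.02, 6.73 and 7.84 TPM in WT. Atf6 was the higher one, at 18.2, 18.0 and 18.9 TPM in VCP TG and at 17.3, 17.3, 16.1 and 17.6 TPM in WT.

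These counts stand beside 19% of all genes higher and 2.78% lower without overlap, and 0 of 37 members were called where 0.0901% of all genes were. The direction turned with the scale. As deposited, 16 members had a fold change above 0 and 21 below; after rescaling to nuclear protein-coding genes all 37 were below 0, and 17 were lower without overlap, beside 16.3% of all genes on that scale. Without WT TAC replicate 1, 23 members were above 0 and 14 below on the values as deposited. With the rescaling, the median of all genes moved from 0.16 to -0.13. Relative to it, the chaperones were below the all-gene median in 14 of 16 cases as deposited, in 16 of 16 after rescaling and in 14 of 16 without the libraries rich in atrial transcripts. The VCP TG libraries at 2 weeks of TAC had a mean of 0.311 to 0.841 TPM over 1346 olfactory and vomeronasal receptor genes, which heart muscle is not known to use, while the other 12 libraries of the table had at most 0.292 TPM. At 5 weeks of TAC this mean was 0.456, 0.157 and 0.344 TPM in VCP TG and 0.112, 0.310, 0.166 and 0.170 TPM in WT, with overlap. The part of these transcripts in the fold changes was not tested at either time.

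The genotypes' responses to TAC were compared directly through the interaction term, and again 0 of 37 members passed (0.00644% of all genes did). Dnajb9 had a difference of -0.95 ± 0.35 on the log2 scale (limma adjusted p = 0.872), being higher with TAC in WT by 0.69 ± 0.24 and lower in VCP TG by a log2 fold change of -0.27 ± 0.26. Hsp90b1 had -0.81 ± 0.37 and Manf -1.24 ± 0.55, both with the same adjusted p of 0.872. Herpud1 was the member with the largest difference in the other direction, 0.99 ± 0.61, and 0.48 without VCP TG sham replicate 4. All 16 chaperones were below the all-gene median of 0.22, with a median of -0.45, while the sensors had 0.04, the ATF4 arm -0.19 and degradation -0.06. Leaving out 1 library, the chaperone median ran from -0.81 (without VCP TG sham replicate 4) to -0.26 (without WT TAC replicate 1). Without the libraries whose Vcp went against their label, 15 of 16 chaperones were below the all-gene median of 0.30, with a median of -0.14. Without those rich in atrial transcripts, 15 of 16 were below the all-gene median of 0.17, with a median of -0.44.

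**Figure D2:**
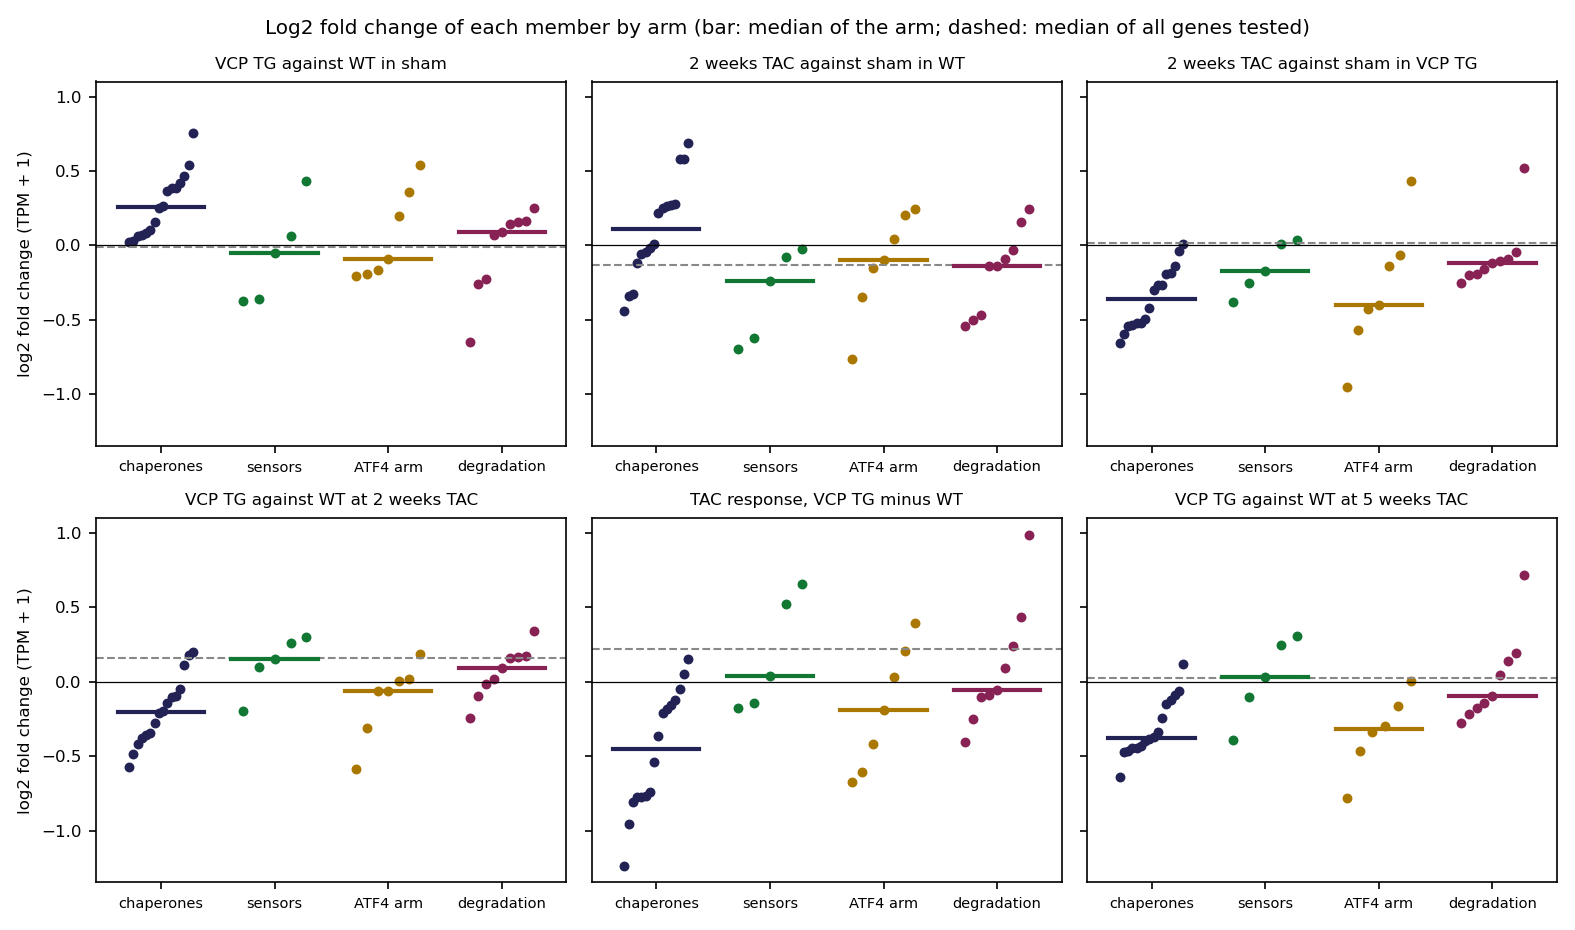
Log2 fold change of each member on the log2(TPM + 1) scale (points), by arm, in the 6 comparisons, with the arm's median (bar) and the median of all genes tested (dashed line). The chaperones lie mostly above 0 in sham and mostly below 0 in the panels for VCP TG after TAC, while the median of the sensors lies at that of all genes at 5 weeks.

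At 5 weeks of TAC, 6 members were lower and 1 was higher in every VCP TG library than in every WT library, beside 1.74% and 3.4% of all genes. Members called were 0 of the 36 tested (0.00715% of 13986 genes), since Trib3 was too low to be tested there. The 5 chaperones among the 6 were Hspa5, Hsp90b1, Dnajb9, Pdia4 and Pdia6. Pdia4 and Pdia6, disulfide isomerases, are named here after their values were seen. Hspa5 was at 97.6, 68.0, 71.1 and 69.1 TPM in WT and 62.2, 62.8 and 47.5 TPM in VCP TG, with a log2 fold change of -0.40 ± 0.21. Hsp90b1 was at 81.6, 89.0, 67.0 and 68.1 TPM in WT and 62.8, 62.9 and 40.8 TPM in VCP TG, with a log2 fold change of -0.47 ± 0.22. Dnajb9 was at 35.6, 22.5, 14.7 and 16.9 TPM in WT and 14.1, 13.6 and 12.02 TPM in VCP TG, with a log2 fold change of -0.64 ± 0.27. In each, 1 VCP TG library was lowest by some distance or the highest VCP TG value came close to the lowest WT value, and the limma adjusted p was 0.904 for all 3. Without the library labelled VCP TG replicate 3 the log2 fold change of Hsp90b1 was -0.27, and without WT replicate 1 that of Dnajb9 was -0.40.

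The chaperone arm as a whole had 15 of 16 fold changes below 0 at 5 weeks, with a median of -0.38 beside 0.03 over all genes. Dnajc10, a disulfide reductase, was the exception at 0.12 ± 0.23. The library labelled VCP TG replicate 3 was the lowest of its group for 13 of the 16 chaperones and for 26 of 37 members, against 63.0% of all genes. Without that library the chaperone median was -0.24, and without the 3 libraries whose Vcp went against their label it was -0.23, with 13 of 16 below 0. Rescaled to nuclear protein-coding genes, the chaperone median was -0.52 beside -0.07 over all genes, and Hspa5 then overlapped, with 156, 199 and 138 in VCP TG and 282, 185, 235 and 246 in WT.

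Herpud1 was the member that was higher in VCP TG at 5 weeks. It was at 74.0, 62.5, 91.0 and 55.5 TPM in WT and at 119, 127 and 102 TPM in VCP TG, with a log2 fold change of 0.72 ± 0.22 and a limma adjusted p of 0.904. The 3 VCP TG libraries lay above the 4 WT libraries, including the library with low Vcp. On the rescaled values the groups met, at 297, 401 and 297 in VCP TG against 214, 170, 301 and 198 in WT, and the log2 fold change was 0.60 ± 0.23. The other degradation genes showed no such step: Syvn1 was at 5.38, 4.04, 5.45 and 4.15 TPM in WT and 4.94, 6.495 and 5.25 TPM in VCP TG, and Sel1l, its partner, had a log2 fold change of -0.28 ± 0.20. The arm's median was -0.10.

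The members not yet described showed no separation of the genotypes at 5 weeks. Among chaperones, the disulfide isomerases Pdia3 and P4hb had log2 fold changes of -0.43 ± 0.25 and -0.39 ± 0.19 in VCP TG against WT, and Sdf2l1, which works with Hspa5, had -0.46 ± 0.21. Nearer to 0 were Hyou1, an exchange factor of Hspa5, at -0.09 ± 0.18, Calr, the soluble lectin chaperone, at -0.15 ± 0.24, and the Hspa5 co-chaperones Dnajb11 and Dnajc3 at -0.06 ± 0.17 and -0.12 ± 0.17. The sensors were split. Eif2ak3 had 0.31 ± 0.24, Ern1 0.25 ± 0.23 and Atf6b 0.03 ± 0.18, while Atf6 had -0.10 ± 0.19 and Xbp1 -0.39 ± 0.23, at 25.0, 21.2, 17.4 and 12.8 TPM in WT and 15.6, 13.7 and 12.6 TPM in VCP TG. In degradation, the mannosidase-like proteins Edem1, Edem2 and Edem3, which mark glycoproteins for removal, had -0.22 ± 0.20, 0.05 ± 0.20 and -0.14 ± 0.19, and the derlins Derl1 and Derl2 had -0.10 ± 0.19 and -0.18 ± 0.26. Ppp1r15b, the constant partner of the phosphatase that Ppp1r15a recruits under stress, had 0.01 ± 0.17.

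Asns, which makes asparagine and is a standard target of Atf4, had the largest fold change of all members at 5 weeks. It was at 1.56, 2.16, 1.89 and 2.42 TPM in WT and at 0.865, 0.548 and 0.814 TPM in VCP TG. The groups were well apart but low, and the log2 fold change of -0.78 ± 0.19 understates the ratio because 1 TPM was added. With a limma adjusted p of 0.904 it did not pass, and on the rescaled values it was -1.22 ± 0.26 with an adjusted p of 0.586. Asns was not low in VCP TG at 2 weeks of TAC, where it was at 2.02, 1.15 and 1.82 TPM against 1.59, 1.21, 0.874 and 1.69 TPM in WT. Atf4 itself overlapped at 5 weeks, with 30.7, 29.0, 23.5 and 19.3 TPM in WT and 18.6, 19.9 and 22.5 TPM in VCP TG. Ddit3 (CHOP), the factor tied to cell death in prolonged ER stress, was at 26.8, 17.0, 12.4 and 14.8 TPM in WT and at 16.8, 15.2 and 6.71 TPM in VCP TG. Its log2 fold change was -0.47 ± 0.33, and -0.09 without the library labelled VCP TG replicate 3.

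**Figure D3:**
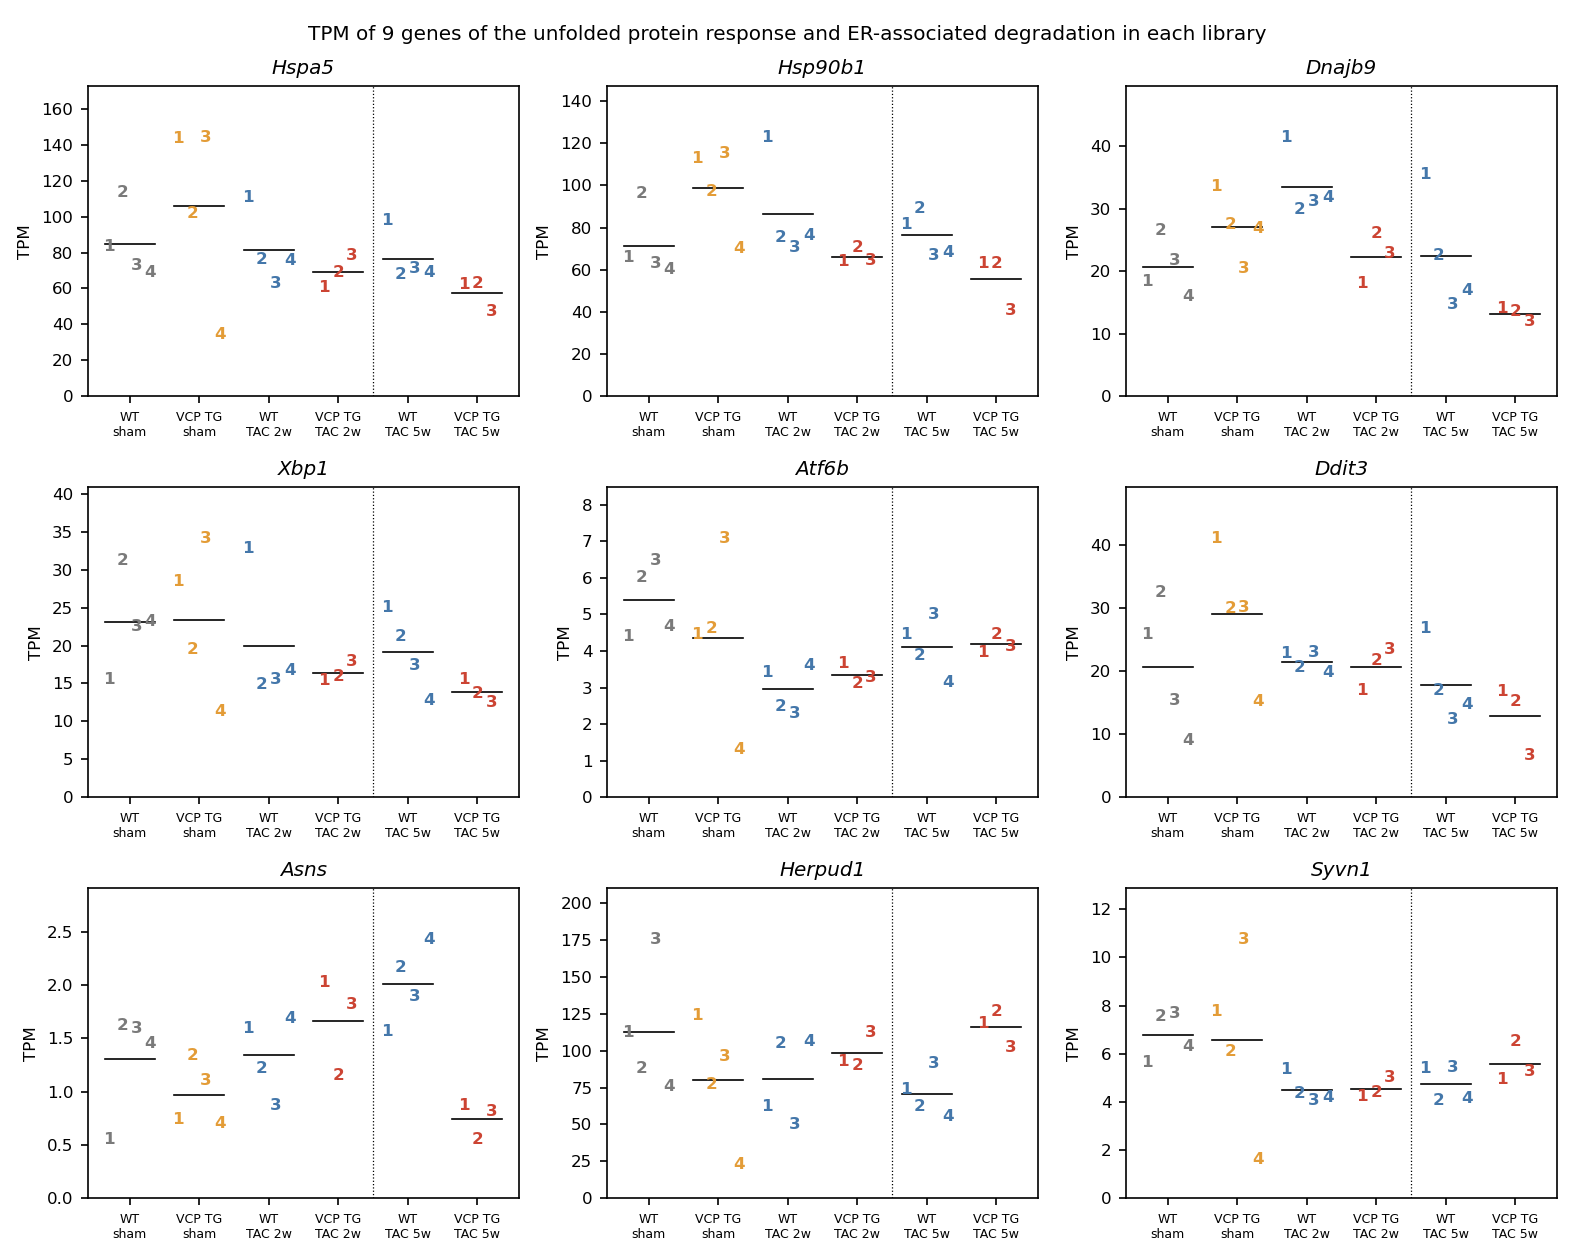
TPM of 9 members in each library (digits are replicate numbers, lines are group means; the dotted line parts the 2-week table from the 5-week table). Dnajb9 in WT is higher after 2 weeks of TAC than in sham, and at 5 weeks Herpud1 is higher and Asns lower in VCP TG than in WT.

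The balance between arms was also read within each library, as a difference of mean log2 TPM, which the scaling of a library cannot move. These differences were chosen after values had been seen and carry no test. For chaperones minus degradation, sham libraries had 0.941, 1.07, 0.741 and 1.09 in WT and 1.24, 1.12, 1.18 and 1.63 in VCP TG, so that VCP TG was higher with no overlap. At 2 weeks of TAC the order was mixed, with 1.70, 1.05, 1.19 and 1.15 in WT and 0.974, 1.10 and 0.890 in VCP TG. At 5 weeks VCP TG was lower with no overlap, at 0.762, 0.913 and 0.861 against 1.18, 1.24, 1.12 and 1.24 in WT. Leaving Herpud1 out of the degradation arm, the 5-week groups still did not overlap (1.25 to 1.42 in VCP TG and 1.57 to 1.65 in WT), and the sham groups did (1.52 to 1.97 and 1.28 to 1.53).

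The ATF4 arm minus degradation was lower in VCP TG than in WT at both times after TAC. At 2 weeks it was -0.90, -0.87, -0.90 and -0.92 in WT and -1.30, -1.16 and -1.32 in VCP TG. At 5 weeks it was -0.89, -0.47, -0.75 and -0.42 in WT and -1.12, -1.07 and -0.93 in VCP TG. Neither pair of groups overlapped, whereas the sham groups did, at -1.33 to -0.72 in WT and -1.08 to -0.68 in VCP TG. The gap at 5 weeks was narrow, -0.89 in WT against -0.93 in VCP TG. Degradation here includes Herpud1, which was higher in VCP TG at 5 weeks, and the difference was not taken without it. The separation at 5 weeks is therefore not read as a trait of the ATF4 arm alone. The mean of the ATF4 arm gives equal weight to Chac1, Asns and Trib3, which lie near 1 TPM. For sensors minus degradation the groups overlapped in sham, at 2 weeks and at 5 weeks.

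**Figure D4:**
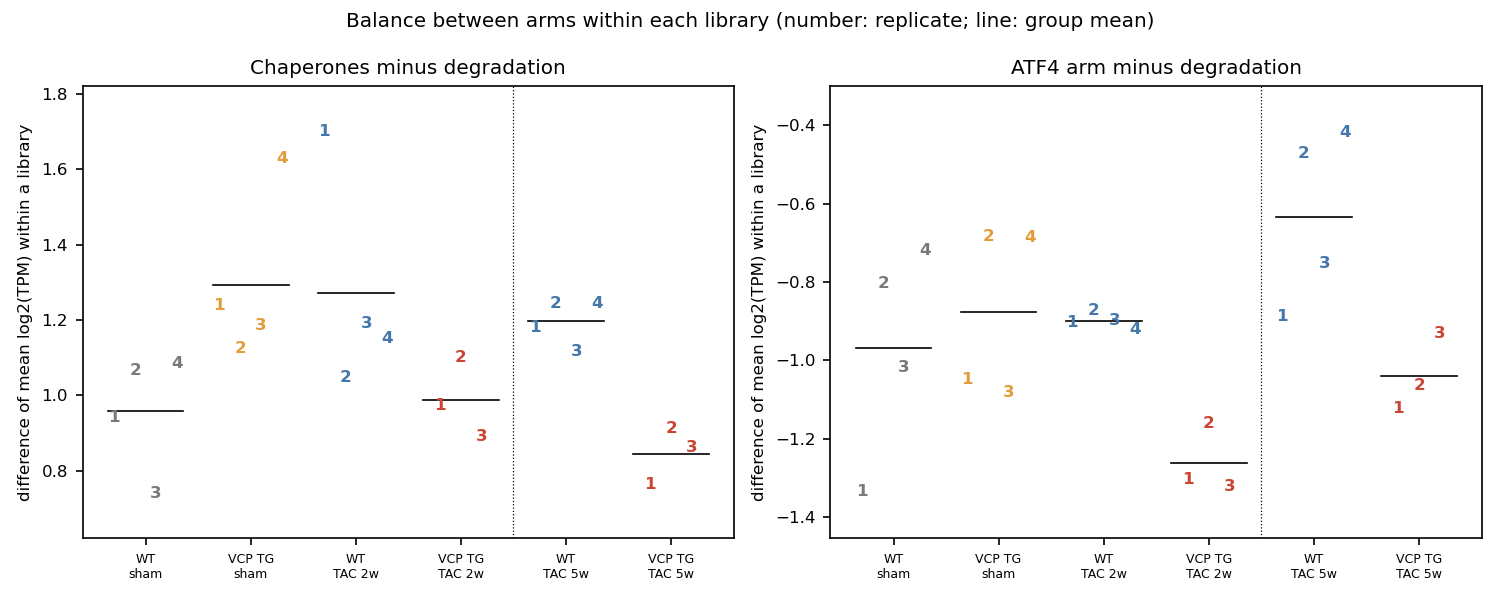
Difference between the mean log2(TPM) of 2 arms within each library (digits are replicate numbers, lines are group means) for chaperones minus degradation and for the ATF4 arm minus degradation. VCP TG libraries lie below WT libraries at 5 weeks of TAC in both panels, and at 2 weeks of TAC in the panel for the ATF4 arm. Degradation includes Herpud1 in both panels.

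The ratio of Herpud1 to Hspa5 in TPM, also chosen after values had been seen, was higher in every VCP TG library at 2 weeks of TAC than in every VCP TG sham library. It was 0.662 to 0.860 in VCP TG sham, 1.31 to 1.53 in VCP TG at 2 weeks of TAC, and 1.91 to 2.15 in VCP TG at 5 weeks. In WT it was 0.775 to 2.40 in sham, 0.564 to 1.41 at 2 weeks and 0.758 to 1.28 at 5 weeks. The 5-week values come from another table, and levels set across the tables carry no comparison.

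Further genes of the pathway were counted in 4 lists: folding, import and glycosylation in the ER (40 genes), regulators of the sensors (21), kinases of eIF2alpha and targets of ATF4, and partners in degradation. None of them passed in any of the 6 comparisons with all groups of a table in the fit. With the 8 WT libraries alone, 1 of 40, 3 of 19, 2 of 27 and 4 of 33 tested genes passed as lower after TAC and 0 as higher in each list, beside the 6.31% and 0.722% of all genes above. These small counts were not tested against those shares and are not read as a trait of the lists. The calls also depend on the libraries, since all genes called in this fit ranged from 49 to 2148 with 1 library left out. Among those that fell, Slc7a5, an amino acid transporter and ATF4 target, had a log2 fold change of -1.72 ± 0.36 (limma adjusted p = 0.0281). Eif2ak4 (GCN2), the kinase that senses amino acid shortage, had -1.01 ± 0.22, and Wfs1, an ER membrane protein that restrains the stress response, had -0.75 ± 0.14. Of the degradation partners, the ubiquitin-conjugating enzymes Ube2j2 and Ube2g2 had -0.76 ± 0.14 and -0.79 ± 0.21, the ubiquitin ligase Ube4b had -0.62 ± 0.15 and the chaperone Bag6 had -0.76 ± 0.17. Erp29, a folding factor, had -0.70 ± 0.18, and the kinase Map3k5 (ASK1) and its regulator Dab2ip had -0.69 ± 0.17 and -0.76 ± 0.20.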

How the data were processed

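The authors deposited TPM per gene in a table of 15 libraries (2 weeks) and a table of 7 (5 weeks); the unit was read from the values, and depth is unknown. Per the labels' protocols, libraries were made with a stranded mRNA kit. The submitters' processing notes name Trimmomatic 0.35, kallisto 0.43.1, STAR 2.5.4b, DESeq2 and GRCm38; the step that made the TPM was not given in the sources used here. No label says that replicates are separate animals, so p-values measure the spread between libraries.

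Of 30735 Ensembl IDs, 30074 had a symbol. Genes with at least 1 TPM in 3 libraries were tested on log2(TPM + 1) with limma 3.58.1 in R 4.3.3 (trended, robust variance; Benjamini-Hochberg adjustment over all genes of the table), each comparison within 1 table. This code was tested on simulated data in which every group had the same spread. The groups here did not: the mean log2(TPM + 1) of the chaperones had an SD of 0.60 in VCP TG sham and 0.22 in WT sham. Calls were made at an adjusted p of 0.05. The members, arms, pathway and marker lists were chosen with earlier results of these data known. Members printed library by library were Hspa5, Xbp1, Atf4, Ddit3, Herpud1 and Syvn1, and those called with all groups or with only the 2 groups compared in the fit. Up to 2 per arm and comparison without overlap and with the largest fold change were printed too. In sham, the deviations of libraries with the same replicate number were weakly correlated (0.107, 0.26, 0.176 and 0.133 in the 4 pairs). Only 2 of 4 libraries in each sham group correlated best with their own number. The replicate block changed no call of a member in sham. Alternatives and libraries left out are given in the closing section.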

Additional observations from a re-analysis of the deposited data

Results flagged for a closer look

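Dixon's test at the 95% level was run on 60 sets, each the 4 libraries of 1 group for 1 of 15 members. In 10 of these sets a library lay far from the other 3, where chance marks about 1 in 20 independent sets. The sets are not independent, since several flags fall in the same library. In WT at 2 weeks of TAC, replicate 1 was far above the rest for Dnajb9 (41.4 TPM), Hsp90b1 (123 TPM), Xbp1 (32.7 TPM) and Creld2 (10.1 TPM). Its atrial marker sum of 9595 TPM and its plasma and B cell marker sum of 293 TPM were the highest of that group, and their part was not tested. In VCP TG sham, replicate 4 was far below the rest for Atf4 (12.2 TPM) and Atf6 (10.001 TPM), with 72.9% mitochondrial TPM. In WT sham, Hsp90b1 was far above in replicate 2 (96.1 TPM), Chac1 far above in replicate 3 (2.40 TPM) and Asns far below in replicate 1 (0.552 TPM). In WT at 5 weeks of TAC, Hspa5 was far above in replicate 1 (97.6 TPM).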

How the results depend on the processing

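The count of all genes called changed most. With a pseudocount of 0.1 it was 1 in sham, 8 for TAC in WT, 2 for TAC in VCP TG, 1 between genotypes at 2 weeks of TAC and 0 for the interaction. With no filter it was 1846 for TAC in VCP TG, 634 between genotypes at 2 weeks and 24 for the interaction. Rescaled to nuclear protein-coding genes it was 21 for TAC in WT, 125 for TAC in VCP TG, 6 between genotypes at 2 weeks, and 0 for the interaction and at 5 weeks. With quantile normalization it was 2 for TAC in WT, 9 between genotypes at 2 weeks and 2 for the interaction, and without the variance trend the interaction had 2. With the replicate block it was 2 for TAC in WT, 5 between genotypes at 2 weeks, and 0 for the interaction and at 5 weeks. No member was called under the block. The numbers do not clearly pair the libraries, in sham or outside it. Without libraries whose Vcp went against the label it was 2 in sham, 17 for TAC in VCP TG, 9 between genotypes at 2 weeks and 0 at 5 weeks. Without the libraries rich in atrial transcripts it was 1202 for TAC in WT, 719 for TAC in VCP TG, 640 between genotypes and 0 for the interaction. With VCP TG sham out of the fit it was 1608 for TAC in WT and 465 between genotypes at 2 weeks. With only the 2 groups compared it was 2 in sham, 964 for TAC in WT, 53 for TAC in VCP TG and 8 between genotypes at 2 weeks. That fit of WT, in alternatives chosen after seeing the data, gave 1632 after rescaling, 423 without the atrial-rich library and 659 with the replicate block. The cause of these changes was not tested.

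Members called for TAC in WT were 4 without atrial-rich libraries (Atf6b, Ppp1r15a, Syvn1 and Os9, all lower), 4 without VCP TG sham (Dnajb9 higher; Atf6b, Syvn1 and Os9 lower), 2 in the 8 libraries alone and 3 when these were rescaled; for TAC in VCP TG, 1 after rescaling. At 2 weeks of TAC between genotypes, rescaling gave medians of -0.60 for chaperones, -0.17 for sensors, -0.45 for the ATF4 arm and -0.27 for degradation, and quantile normalization gave -0.041 for sensors, -0.21 for the ATF4 arm and -0.11 for degradation. The replicate block gave -0.21 for the ATF4 arm and -0.064 for degradation there. The ATF4 arm median of the interaction was -0.51 rescaled and -0.48 with quantile normalization, that at 5 weeks was -0.43 rescaled, and the degradation median for TAC in WT was 0.075 with quantile normalization.

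Leaving out 1 library, genes called ranged from 0 to 1 in sham, 0 to 1 for TAC in WT (49 without WT TAC replicate 3 to 2148 without WT sham replicate 4 in the 8 libraries alone), 1 to 753 for TAC in VCP TG (753 without sham replicate 3), 1 to 15 between genotypes at 2 weeks, 0 to 4 for the interaction and 0 to 3 at 5 weeks. Members called stayed at 0 in these, and were 0 to 2 in the 8 WT libraries. Chaperone medians ranged from 0.06 to 0.49 in sham, -0.12 to 0.24 for TAC in WT, -0.66 to -0.21 for TAC in VCP TG, -0.32 to -0.04 between genotypes at 2 weeks, -0.81 to -0.26 for the interaction and -0.48 to -0.24 at 5 weeks. Sensor medians ranged from -0.26 to 0.24, -0.49 to -0.09, -0.43 to 0.07, 0.07 to 0.22, -0.23 to 0.14 and -0.07 to 0.11 in the same order. For the ATF4 arm they ranged from -0.25 to 0.28, -0.22 to 0.03, -0.67 to -0.21, -0.10 to 0.00, -0.40 to 0.18 and -0.40 to -0.19. For degradation they ranged from -0.10 to 0.37, -0.24 to -0.02, -0.45 to 0.07, 0.03 to 0.14, -0.32 to 0.17 and -0.18 to 0.07. Of 1067 values of named members under an alternative, 64 changed sign, 14 came to pass the threshold and none that passed was reversed. TPM keeps no depth, so no counting error can be given, and low members (Trib3, Chac1, Asns) are the least certain.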
